A study of Mus musculus with 4 samples.

Results

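The genes described here are 9 genes through which muscle precursor cells adhere and fuse: Tmem8c, Cdh15, Cdh2, Ncam1, Vcam1, Cav3, Dysf, Myof and Kirrel. They were picked by symbol, as known adhesion and fusion genes of myoblasts, and all 9 were found among the 24850 named entries of the total RNA tables and the 24992 named entries of the polyA RNA tables. Tmem8c, which encodes myomaker, is listed as Mymk in the polyA tables. The cells were C2C12, a mouse myoblast line that exits the cell cycle and fuses into multinucleated myotubes (MT) when growth medium with fetal bovine serum is replaced by differentiation medium (DM) with horse serum. Total RNA depleted of ribosomal RNA was sequenced from proliferating myoblasts (MB, labelled DM -24 h) and from MT, labelled DM 72 h. A legend of the study gives MT a shorter time in DM, for sequencing data whose library type it leaves unnamed, so the time of MT is uncertain. PolyA RNA was sequenced from differentiating cells at DM 48 h that had been transfected with an siRNA against hnRNPL, an RNA-binding protein (si-hnRNPL), or with a control siRNA (si-NC). Each of these 4 conditions had 1 library of this cell line, so the differences below rest on single libraries and carry no test.

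Fusion of myoblasts runs in steps. Cadherins and proteins of the immunoglobulin family first hold neighbouring cells together, the actin cytoskeleton then pushes the membranes against each other, and the fusogens myomaker and myomixer join them. Caveolins and ferlins act on the membrane itself: caveolin 3 shapes caveolae of the muscle membrane, dysferlin reseals membrane wounds and myoferlin serves in the fusion of myoblasts with myotubes. Expression of several of these genes is a textbook sign that differentiation has started.

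Levels are FPKM, the number of fragments of a gene divided by its transcript length and by the depth of the library, each with the 95% interval that Cufflinks gave it. The interval reflects error within that library, to which the number of fragments contributes, and says nothing of the spread between cultures. Its width need not follow fragments alone. In si-NC it corresponds to 3435 fragments for Myof, at 78.8 FPKM, and to 8416 for the shorter Cdh2, at 53.0 FPKM. A change is log2((FPKM + 1) ratio), which understates the change of low genes, and a gene was counted as higher or lower at an absolute value of 0.58 or more. Read as counting error alone, the widths of the intervals correspond to between 14592480 fragments, in si-hnRNPL, and 59960176, in MB. The labels call all 4 samples myoblasts. Summed over 10 myogenic markers, the level was 163 FPKM in MB, 1585 in MT, 2290 in the si-NC library and 3161 in the si-hnRNPL library, and 9 of the 10 rose in MT. Summed over 6 proliferation markers, it was 589 FPKM in MB, 95.9 in MT, 234 in the si-NC library and 167 in the si-hnRNPL library. None of 5 endothelial markers reached 1 FPKM in any library, and their sum lay between 0.0589 and 0.416 FPKM. Of 5 leukocyte markers 1 reached it, Cd68 at 1.13 FPKM in MB, with sums between 0.453 and 1.13 FPKM and Emr1 and Cd3e at 0 in all libraries. Of 5 neural and Schwann markers only Tubb3 reached it, and it fell from 56.4 FPKM in MB to 11.4 in MT (-2.21), with 50.7 and 39.3 FPKM in the si-NC and si-hnRNPL libraries. The summed level of that list was between 12.2 and 57.1 FPKM. Of 4 adipocyte markers only Pparg reached it and fell from 14.8 FPKM in MB to 3.94 in MT (-1.68), with list sums between 3.60 and 15.0 FPKM and Plin1 at 0 throughout. The part of these markers in the results was not tested.

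Promoter sequences of RefSeq (build GRCm38.p6) were found for 5 of the 9 genes, Cdh15, Cav3, Dysf, Myof and Kirrel. The windows below hold the 250 bases before the annotated start and were searched on both strands for CANNTG, the E-box letters that MyoD family factors bind. They are shown because Cav3 and Cdh15 rose in MT and Kirrel fell, and capitals mark the CANNTG matches. Dysf also rose in MT, but its windows are not printed.

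Cav3, chr6:112459255-112459504, + strand: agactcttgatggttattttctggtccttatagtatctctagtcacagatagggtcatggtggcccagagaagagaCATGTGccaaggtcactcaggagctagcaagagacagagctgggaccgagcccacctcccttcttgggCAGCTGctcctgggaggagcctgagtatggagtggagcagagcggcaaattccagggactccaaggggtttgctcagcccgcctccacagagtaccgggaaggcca

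Cdh15, chr8:122848124-122848373, + strand: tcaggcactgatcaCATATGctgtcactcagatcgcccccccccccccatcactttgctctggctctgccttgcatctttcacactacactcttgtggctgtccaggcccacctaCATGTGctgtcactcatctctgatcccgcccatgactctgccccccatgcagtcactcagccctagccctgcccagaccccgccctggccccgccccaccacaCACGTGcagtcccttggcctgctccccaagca

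Kirrel, chr3:87174538-87174787, - strand: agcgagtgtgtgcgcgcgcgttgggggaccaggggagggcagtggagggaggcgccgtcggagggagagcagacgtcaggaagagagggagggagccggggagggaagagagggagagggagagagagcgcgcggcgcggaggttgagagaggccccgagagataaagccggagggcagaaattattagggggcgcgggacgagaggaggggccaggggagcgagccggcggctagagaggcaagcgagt

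The Cav3 window held 2 matches, which began 174 and 106 bases before the start, and the nearer one read CAGCTG. The Cdh15 window held 3, at 236, 135 and 32 bases before the start. The windows of Kirrel, Myof and both starts of Dysf held 0, although Dysf was higher in MT (1.04). Over all 32851 promoter windows of the same length, 66.2% held CANNTG and 4271 held CAGCTG, which is itself a CANNTG. These matches describe letters only, and binding was not measured here. The start of Cdh15 differs between annotations, at 125372274 of mm9 for the quantified locus and 125371866 for the gene position given below. Which of these starts the window precedes was not checked.

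The first comparison, MT over MB, follows the genes through differentiation. Of the 9 genes, 6 were higher in MT, 1 was lower and 2 changed by less than the limit. The 6 were Tmem8c, Cav3, Cdh15, Ncam1, Vcam1 and Dysf, the 1 was Kirrel, and the 2 were Cdh2 and Myof. Among all named entries 7.81% were higher and 13.7% lower, and among the 11816 with 1 FPKM or more in at least 1 of both libraries 15.4% were higher and 28.6% lower. The median change of the 9 genes was 1.06, beside -0.20 over those 11816 entries. The 10791 named genes at 1 FPKM or more in both libraries had a median of -0.23, so that a gene at 0 stood above the middle of the transcriptome.

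**Figure D1:**
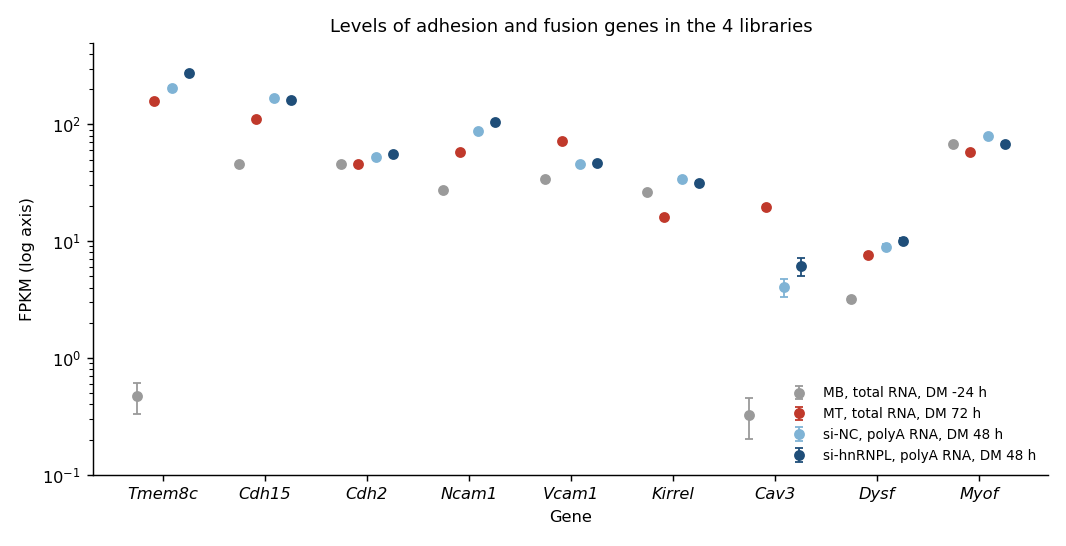
Level of each of the 9 genes (FPKM, log axis) in the MB, MT, si-NC and si-hnRNPL libraries, with bars for the 95% interval within the library. Tmem8c and Cav3 lie below 1 FPKM in MB and at 157 and 19.5 FPKM in MT, while Cdh2 has nearly the same level in both.

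Tmem8c showed the widest range of the 9. It is annotated on the minus strand of chromosome 2, at 26917156 to 26927699 of mm9, and its product, myomaker, is a muscle-specific membrane protein needed for fusion. Its level was 0.471 FPKM (95% interval 0.332 to 0.610) in MB and 157 (155 to 159.8) in MT, and the intervals lie far apart. This is a change of 6.75 on the log2 scale (6.62 to 6.90) or a 334-fold ratio of FPKM (258 to 475). The width of the MB interval corresponds to about 45.7 fragments. The gene passed from the next to last place among the 9 in MB to the first in MT.

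Myomixer, the microprotein that works with myomaker, is not among the 9 but is its only partner in the fusogen list. It is listed as Gm7325 in the total RNA tables, on chromosome 17 at 45737916 to 45739051. Its level rose from 0.204 FPKM (0.0345 to 0.374) in MB to 98.0 (95.1 to 100.9) in MT, a change of 6.36. The width of the MB interval corresponds to only 5.79 fragments if read as counting error alone. The ratio of 479 has an interval from 262 to 2837. Within a library Tmem8c stood 2.30 times above Gm7325 in MB (1.14 to 13.9) and 1.61 times above it in MT (1.55 to 1.66), and these intervals overlap.

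The pair of classical cadherins among the 9 moved apart. Cdh15 encodes M-cadherin, the cadherin of skeletal muscle cells, and lies on the plus strand of chromosome 8 at 125371866 to 125391297. It rose from 45.9 FPKM (45.0 to 46.8) in MB to 110.1 (109 to 111) in MT, a change of 1.24 (1.21 to 1.28) and a ratio of 2.40. Gm20388, an annotated gene on the same strand, overlaps Cdh15, so reads of the overlap could belong to either. Annotated genes on the opposite strand overlap Cdh2 (Gm15485), Ncam1 (Gm11149 and Gm17616) and Dysf (Gm15475), and without knowing whether strand was used in counting their reads cannot be told apart from those of the 3 genes. Cdh2 encodes N-cadherin, which mesenchymal and neural cells also carry, and lies on the minus strand of chromosome 18. Its level was 45.8 FPKM (45.1 to 46.5) in MB and 45.9 (45.2 to 46.6) in MT. The interval of its ratio, 0.980 to 1.02, holds error within the libraries under the deposited scaling only. Its change of 0.0017 became 0.23 after centring and 0.28 with upper-quartile scaling, still within the limit. In MB the levels of both cadherins could not be told apart, with Cdh15 at 1.00 times Cdh2 (0.977 to 1.03). In MT Cdh15 stood at 2.40 times Cdh2 (2.35 to 2.45).

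Ncam1 and Vcam1 rose by nearly the same factor. Ncam1, the neural cell adhesion molecule that also marks regenerating muscle fibres, spans 296.8 kb of the minus strand of chromosome 9. Its level was 27.4 FPKM (26.8 to 27.9) in MB and 57.9 (57.2 to 58.7) in MT, a change of 1.06 (1.02 to 1.09). Vcam1 encodes the ligand of the integrin made of the Itga4 and Itgb1 products, and lies on chromosome 3 at 115812938 to 115832606. It went from 34.0 FPKM (33.3 to 34.7) to 71.9 (70.9 to 73.0), a change of 1.06 (1.03 to 1.10). The ratio was 2.12 for either gene, and the intervals of both ratios run from 2.07 to 2.17.

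Kirrel was the gene that fell. It encodes a nephrin-like member of the immunoglobulin family, whose fly relatives mark the founder cells of muscle fusion, and lies on the minus strand of chromosome 3 at 86882515 to 86978669. The level was 26.4 FPKM (25.8 to 26.9) in MB and 16.2 (15.8 to 16.7) in MT, a ratio of 0.615 (0.594 to 0.636). The change of -0.67 was past the limit as computed but was -0.44 after centring on the median gene and -0.40 after scaling to the upper quartile, so the call depends on the scaling. Against the median of -0.23, Kirrel was below most genes, and 24.4% of the 11816 expressed entries had a lower change.

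The membrane genes gave 3 patterns. Cav3, the muscle caveolin, has 2 exons at 112409495 to 112422865 of chromosome 6. Its level was 0.327 FPKM (0.201 to 0.452) in MB and 19.5 (18.6 to 20.5) in MT, a change of 3.95 (3.80 to 4.11) and a 59.8-fold ratio with an interval from 43.0 to 97.4. The width of the MB interval corresponds to about 27.0 fragments. Dysf, on the same chromosome at 83958584 to 84161054, encodes dysferlin and rose from 3.17 FPKM (2.99 to 3.35) to 7.59 (7.31 to 7.87), a change of 1.04 (0.97 to 1.12). Myof, the gene of myoferlin on chromosome 19 at 37973526 to 38118067, was at 67.4 FPKM (66.7 to 68.1) in MB and 57.8 (57.2 to 58.4) in MT. Its change of -0.22 (-0.24 to -0.20) was within the limit, close to that of the median gene, and 0.06 after scaling to the upper quartile. Myof was therefore the most abundant of the 9 in MB and about level with Ncam1 in MT.

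The balance of the ferlins shifted without turning over. Dysf stood at 0.0470 times Myof in MB (0.0443 to 0.0497) and at 0.131 times in MT (0.126 to 0.136). Cav3 passed from 0.103 times Dysf in MB (0.0632 to 0.144) to 2.57 times in MT (2.42 to 2.73). A ratio within a library does not depend on how the library was scaled.

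**Figure D2:**
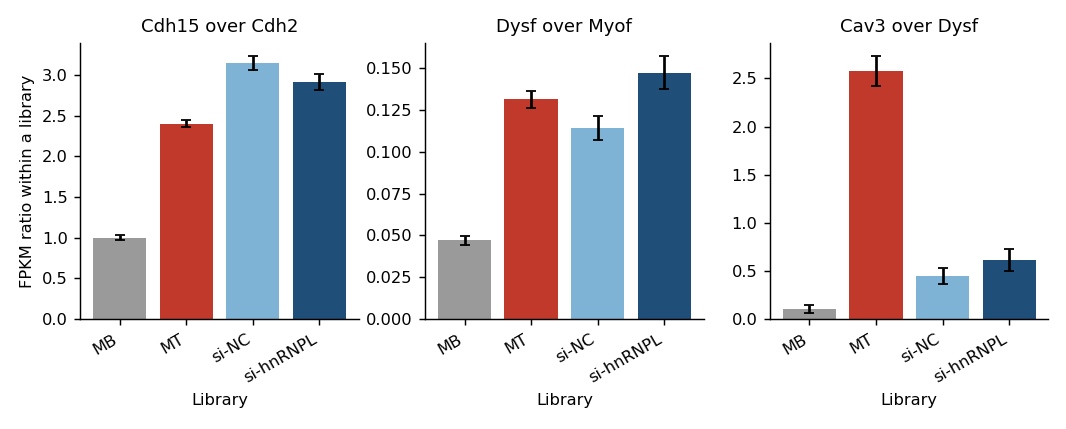
Ratio of FPKM between a pair of genes within each library, with bars from 0 and 95% intervals within the library. Cdh15 over Cdh2 is 1.00 in MB and 2.40 to 3.15 in the other 3 libraries, Dysf over Myof is lowest in MB, and Cav3 over Dysf exceeds 1 in MT only. MB and MT are total RNA, while si-NC and si-hnRNPL are polyA RNA of transfected cells at another labelled time. Differences between these pairs cannot be told apart from library type, transfection and time.

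In MB the order by FPKM was Myof, Cdh15, Cdh2, Vcam1, Ncam1, Kirrel, Dysf, Tmem8c and Cav3. The intervals of 3 neighbouring pairs overlapped, Cdh15 with Cdh2, Ncam1 with Kirrel, and Tmem8c with Cav3. In MT the order was Tmem8c, Cdh15, Vcam1, Ncam1, Myof, Cdh2, Cav3, Kirrel and Dysf, and only Ncam1 and Myof overlapped. Levels of bulk RNA are averages over a culture, in which fewer cells of a kind and less RNA per cell cannot be told apart. The 9 of 10 myogenic markers that rose and the 6 of 6 proliferation markers that fell moved along with these genes, and their part in the changes was not tested.

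**Figure D3:**
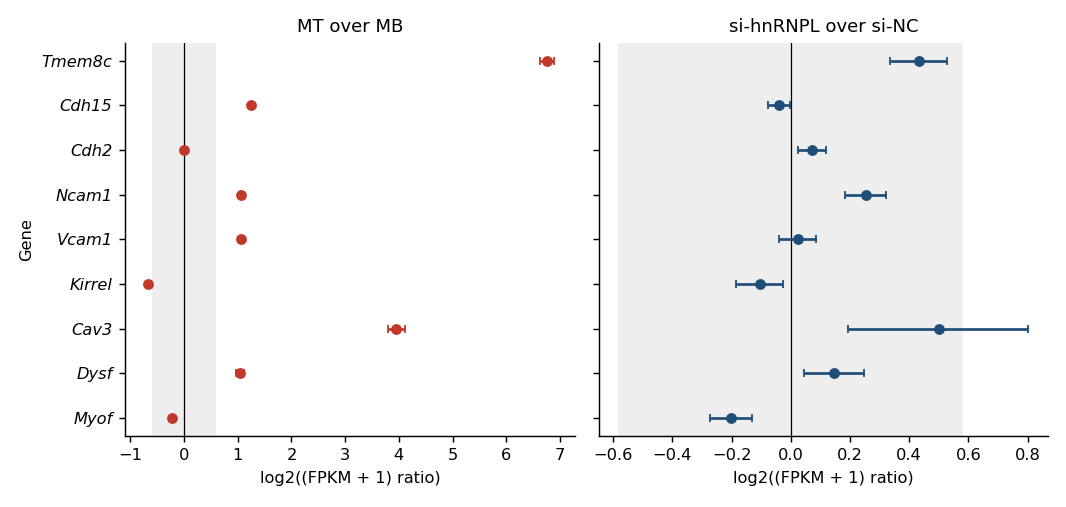
Log2 change of the 9 genes in MT over MB (left) and in si-hnRNPL over si-NC (right), on axes of different range, with bars for the 95% interval and grey for changes under 0.58. On the left 6 genes lie to the right of the grey zone and Kirrel to its left, and on the right all 9 points lie within it.

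Other genes of the same processes were followed in 8 lists of partners, 94 genes in all, of which 93 were listed and Fer1l6 was not. Of the 70 at 1 FPKM or more in MB or MT, 16 rose, 21 fell and 33 stayed within the limit, with a median of -0.22. Among all expressed entries 15.4% were higher and 28.6% lower, the latter close to the share of the partners that fell. The counts of each list below are to be read beside these shares. Over all 93, of which 23 were under 1 FPKM in both libraries, 16 were higher and 21 lower. After centring 18 of the 93 were higher and 12 lower, so the balance of the lists depends on the scaling. The same step took all 24850 named entries from 1942 higher and 3407 lower to 3060 higher and 2208 lower.

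Cadherins and catenins gave 3 rises and 0 falls among 12, with 6 expressed. Cdh13, a cadherin anchored by a lipid tail, rose from 18.2 to 73.3 FPKM (1.95). Cdh11, the mesenchymal cadherin, rose from 7.67 to 29.5 FPKM (1.81), and Jup, which encodes plakoglobin, from 17.3 to 27.7 FPKM (0.65). Ctnnd1, the gene of p120 catenin, was at 67.6 FPKM in MB and 83.6 in MT, within the limit. Of the cadherins expressed, Cdh2 was thus level while Cdh15, Cdh11 and Cdh13 rose.

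The immunoglobulin family gave 2 rises and 6 falls among 21, with 14 expressed and a median of -0.38. Alcam, a homophilic adhesion molecule, fell from 24.7 to 2.20 FPKM (-3.01). Mcam, an adhesion molecule of vessels and of some progenitor cells, fell from 17.8 to 1.36 FPKM (-2.99). Pvrl1, the gene of nectin 1, fell from 4.88 to 1.20 FPKM (-1.42), while F11r, a junctional adhesion molecule, rose from 2.99 to 10.2 FPKM (1.49). Of the 14 expressed, 11 lay below 0, as did 61.1% of all expressed named entries and Kirrel, and as Ncam1 and Vcam1 did not. After centring 2 were higher and 5 lower.

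Receptors and modifiers of the same proteins gave 2 rises and 1 fall among 5. Itga4, the alpha subunit of the VCAM1 receptor, was near 0 in MB at 0.0536 FPKM and at 1.05 in MT (0.96). Itgb7, a beta subunit that pairs with it, fell from 5.31 to 0.105 FPKM (-2.51), and Itgb1, the beta subunit shared by many integrins, was at 153 and 141 FPKM, within the limit. St8sia2, an enzyme that puts polysialic acid on NCAM1, rose from 0.567 to 1.99 FPKM (0.93).

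The caveolae list gave 3 rises and 6 falls among 11, all expressed. Murc, the muscle cavin, rose from 15.4 to 71.4 FPKM (2.15) and Sdpr, another cavin, from 42.0 to 91.3 FPKM (1.10). Cav2, which forms caveolae with caveolin 1, fell from 11.05 to 4.36 FPKM (-1.17), and Ehd1, a membrane-shaping ATPase, fell from 49.4 to 22.7 FPKM (-1.09). Cav3 and Murc, the muscle forms on this membrane, rose, and the list as a whole had a median of -0.61. After centring, 3 of its genes were higher and 3 lower.

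Ferlins and membrane repair gave 3 rises and 2 falls among 11 listed. Trim72, the gene of the repair protein MG53, rose from 0.0783 to 32.8 FPKM (4.97). Capn3, a muscle calpain, rose from 0.693 to 4.66 FPKM (1.74), and Bin1, which shapes transverse tubules, from 82.9 to 169 FPKM (1.01). Anxa2, an annexin recruited to wounds, fell from 582 to 252 FPKM (-1.20).

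Actin remodelling at the fusion site gave 0 rises and 5 falls among 22, with 20 expressed and a median of -0.44. Among all expressed named entries 15.4% were higher and 28.6% lower, so its falls were not more frequent than those of expressed genes at large. Dock5, an exchange factor for Rac, fell from 13.1 to 5.52 FPKM (-1.12). Arf6, Wipf1 and Elmo2 were at -0.75, -0.73 and -0.66, but at -0.52, -0.50 and -0.43 after centring, within the limit. The list then held 2 higher genes, Pak3 (0.68) and Elmo1 (0.63), and 1 lower gene, Dock5 at -0.89, so its balance depends on the scaling. Elmo1 was not among the 20 expressed, at 0.0149 FPKM in MB and 0.339 in MT. Phosphatidylserine receptors and tetraspanins gave 2 rises and 1 fall among 10. The tetraspanin genes Cd82, from 43.1 to 144 FPKM (1.72), and Cd53, from 1.11 to 3.78 FPKM (1.18), rose, while Adam12, a transmembrane protease of myoblasts that was kept in the same list, fell from 14.9 to 7.19 FPKM (-0.95). Cd81, another tetraspanin, was at 144 FPKM in MB and 172 in MT.

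**Figure D4:**
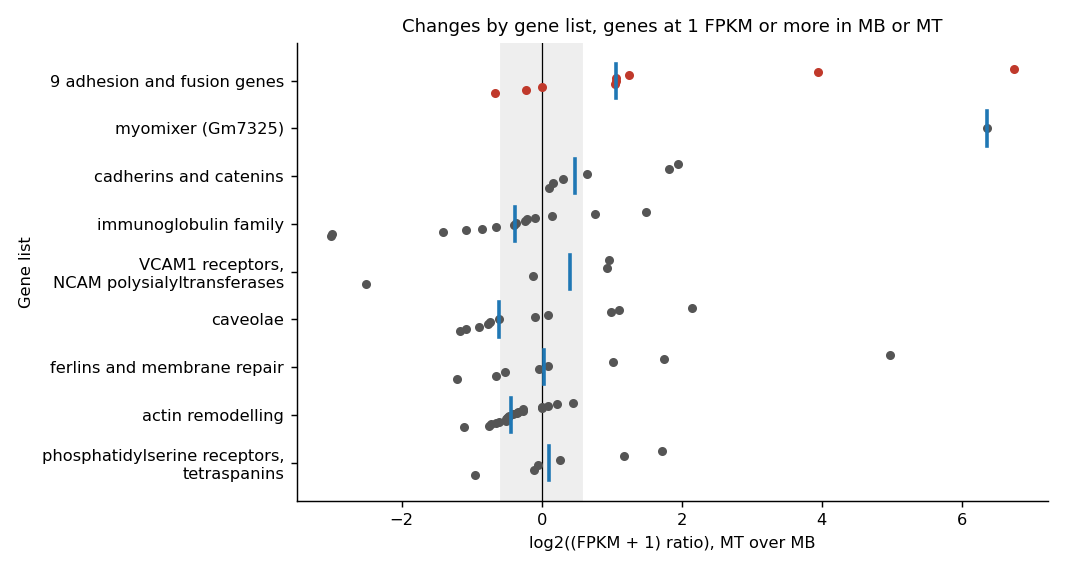
Log2 change in MT over MB of the 9 genes (red) and of each partner list (dark grey), 1 point for each gene at 1 FPKM or more in MB or MT, with a blue bar at the list's median and grey shading for changes under 0.58. The median of the 9 genes is 1.06, and that of the immunoglobulin, caveolae and actin lists is -0.38, -0.61 and -0.44.

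The total RNA tables also list transcript units assembled from the reads, and 8 of them lie within the loci of 2 of the 9 genes. All 8 are intronic and overlap no annotated exon. The 3 units in Ncam1 lie between 284.6 and 288.8 kb from its start and went from 1.54 to 1.81 FPKM in MB to 4.31 to 5.22 in MT. Their changes of 1.06 to 1.15 were close to that of the gene itself, 1.06. The 5 units in Kirrel were at 1.34 to 2.63 FPKM in MB and at 1.75 to 2.96 in MT. Of these 4 lay above 0 and 1 was counted as higher (0.62, interval 0.12 to 1.13), whereas Kirrel itself changed by -0.67. The interval of the change left out 0 for 2 of the 5 units in Kirrel and for all 3 in Ncam1. The direction of the other units in Kirrel is therefore uncertain. Among the 11426 assembled units at 1 FPKM or more in MB or MT, 49.8% were higher and 8.21% lower, so rises of units are common in this pair. Gm11149, annotated on the strand opposite to Ncam1, was at 0.568 FPKM in MB and 1.35 in MT. Whether an intronic unit is unspliced host RNA or a transcript of its own was not tested.

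The second comparison asks how the same genes stood after transfection with si-hnRNPL. The targeted gene, Hnrnpl, was at 95.1 FPKM (92.7 to 97.5) in si-NC and 85.9 (83.1 to 88.7) with si-hnRNPL, a ratio of 0.904 (0.867 to 0.942). The intervals do not overlap and the direction is that of the label, but the change of -0.14 is within the limit. The study examined the knockdown at the level of hnRNPL protein, by Western blot, which these RNA values do not measure. In the other pair Hnrnpl was at 111 FPKM in MB and 63.0 in MT.

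Of the 9 genes, 0 were higher and 0 lower at the limit of 0.58, and no test was run. Over all named entries 0.688% were higher and 0.416% lower, and over the 11370 with 1 FPKM or more in at least 1 of both libraries 1.44% were higher and 0.888% lower and a count of 0 in 9 is read against these shares. The median change of the 9 genes was 0.07, beside -0.010 over those 11370. The interval of the change left out 0 for 8 of the 9, of which 5 lay above 0 and 3 below. Among the 11370 expressed entries 20.6% had an interval above 0 and 26.6% below, and these intervals hold error within the libraries only.

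Tmem8c was at 204 FPKM (194 to 214) in si-NC and 276 (262 to 289) with si-hnRNPL. Its change was 0.43 (0.34 to 0.53), a ratio of 1.35 (1.26 to 1.44). Myomixer, listed here as Mymx, was at 81.0 FPKM (76.2 to 85.7) in si-NC and 127 (119.9 to 135) with si-hnRNPL, and its change of 0.65 (0.53 to 0.76) was past the limit. Both fusogen genes were thus above their control level, and Tmem8c stood at 2.52 times Mymx in si-NC (2.34 to 2.72) and at 2.17 times in si-hnRNPL (2.01 to 2.34).

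Cav3 was at 4.05 FPKM (3.33 to 4.76) in si-NC and 6.14 (5.05 to 7.24) with si-hnRNPL, a ratio of 1.52 (1.18 to 1.96). Its change of 0.50 (0.19 to 0.80) was the largest of the 9 and also the least precise, and it passed the limit with smaller pseudocounts, at 0.60 with 0.01. Dysf was at 8.98 FPKM (8.53 to 9.43) and 10.0 (9.46 to 10.6), with intervals that just part. Myof was at 78.8 FPKM (76.1 to 81.4) in si-NC and 68.3 (65.9 to 70.7) with si-hnRNPL, a ratio of 0.868 (0.826 to 0.911). Myof was the gene with the lowest change of the 9, at -0.20.

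Among the adhesion genes Ncam1 had the largest difference, with 87.1 FPKM (84.1 to 90.0) in si-NC and 104 (100.3 to 108) with si-hnRNPL, a ratio of 1.19 (1.14 to 1.25). Cdh15 was at 167 FPKM (164 to 169) in si-NC and 162 (159 to 165) with si-hnRNPL, a ratio of 0.973 (0.947 to 0.998). Cdh2 was at 53.0 FPKM (51.8 to 54.1) and 55.7 (54.3 to 57.2), a ratio of 1.05. Both cadherins were thus close to their control level, and Cdh15 stood at 3.15 and 2.91 times Cdh2. Vcam1 was at 45.5 FPKM (44.2 to 46.8) and 46.2 (44.6 to 47.8), the only gene of the 9 whose interval of the change, -0.04 to 0.08, includes 0. Kirrel was at 34.2 FPKM (32.8 to 35.5) and 31.7 (30.4 to 33.0), a change of -0.11. In both polyA libraries the order was Tmem8c, Cdh15, Ncam1, Myof, Cdh2, Vcam1, Kirrel, Dysf and Cav3, and no neighbours had overlapping intervals.

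In the partner lists, 2 of 93 genes were higher and 1 was lower, beside 0.688% and 0.416% of all named entries. Trim72 rose from 26.5 FPKM (25.4 to 27.7) in si-NC to 54.5 (52.5 to 56.6) in si-hnRNPL, a change of 1.01 (0.93 to 1.09). Mymx was the other gene that rose. L1cam, the gene of a neural adhesion molecule of the immunoglobulin family, fell from 10.5 FPKM (9.99 to 10.9) to 4.89 (4.47 to 5.30), a change of -0.96 (-1.08 to -0.85). All other partners lay within the limit, Jam2 at -0.52, Cd53 at -0.50 and Itga4 at -0.37 among them. For the 69 partners expressed in this pair the median was -0.06.

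Along with these genes, the myogenic markers Ckm (from 45.0 to 74.3 FPKM) and Acta1 (from 1009 to 1537 FPKM) rose in si-hnRNPL, and 9 of the 10 myogenic markers lay above 0. Myf5 lay below 0, from 38.5 to 29.0 FPKM (-0.40, interval -0.50 to -0.30), and the intervals of Mb and Mef2c included 0. The calls of Ckm and Acta1 are lost after the adjustment for length and GC content described next, at 0.50 for Ckm and 0.43 for Acta1. After it 8 of the 10 lay above 0. The proliferation markers Mcm5, Mki67 and Top2a fell by 0.64, 0.62 and 0.60 on the log2 scale, and all 6 lay below 0. After the same adjustment Mcm5 was at -0.62, and Mki67 (-0.45) and Top2a (-0.46) were within the limit. Among all expressed entries 48.0% lay above 0 and 52.0% below. The part of these markers in the differences was not tested.

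The change in si-hnRNPL also moved with transcript length and GC content. Over 10717 named genes at 1 FPKM or more in both libraries, Spearman's rho was -0.45 with length and 0.42 with GC content, a description across genes of 1 pair of libraries. Of the genes described here, the shortest transcripts were those of myomixer (852 bases), Cav3 (1160) and Tmem8c (1382), and the longest those of Kirrel (7278), Myof (7133), Dysf (6836) and Ncam1 (6612). Genes of similar length had median changes of 0.21, 0.14 and 0.11 for the first 3 in that order, and -0.13 for the last 4. After subtraction of the medians by length and GC content, an alternative chosen after seeing the data, the change was 0.39 for myomixer, 0.29 for Cav3 and 0.29 for Tmem8c. It was then 0.35 for Ncam1, 0.18 for Dysf and -0.09 for Myof, so that Ncam1 ranked first of the 9. Trim72 was at 0.93 and L1cam at -0.93 after the same step. The call of Mymx as higher is lost under it, while its sign and those of all 9 genes did not turn.

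**Figure D5:**
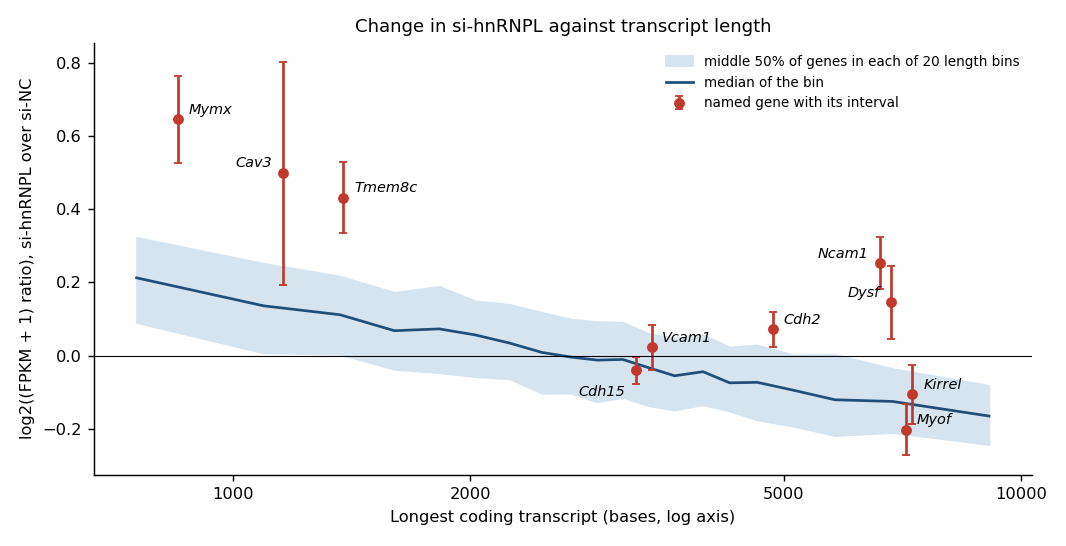
Log2 change in si-hnRNPL over si-NC against the length of the longest coding transcript (bases, log axis) for the 9 genes and myomixer (Mymx), with bars for the 95% interval. The blue line joins the medians of 20 length bins of all named genes and the band holds the middle 50% of each bin. The medians go from 0.21 in the shortest bin to -0.16 in the longest, and Tmem8c, Cav3, Mymx, Ncam1, Cdh2 and Dysf lie above the band.

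For each of the 9 genes the 3 genes with the most similar levels over the 4 libraries were found among 23416 named genes, by Euclidean distance on log2(FPKM + 1). The total and polyA tables were normalized separately, and the likeness rests on 4 points. For Tmem8c they were Mybph (0.47), a myosin-binding protein, Myog (0.75), the myogenic factor myogenin, and Myh3 (0.76), the embryonic myosin heavy chain. The levels of Mybph were 0.145 FPKM in MB, 185 in MT, 209 in the control and 315 after si-hnRNPL. For Cav3 they were Ankrd23 (0.30), Igf1 (0.49) and Dll1 (0.62), of which Ankrd23 encodes a muscle ankyrin repeat protein and Igf1 a growth factor. For Vcam1 they were Myod1 (0.19), the myogenic factor MyoD, 2010111I01Rik (0.26) and Akt2 (0.37). Myod1 was at 36.6 FPKM in MB, 65.9 in MT, 43.6 in the control and 49.0 after si-hnRNPL.

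The genes most like the others were Rnf11 (0.30), Cfl2 (0.39) and Pcdhgc3 (0.42) for Cdh15. Cfl2 encodes the muscle cofilin, which severs actin filaments. Zcchc24 (0.25), Rsrp1 (0.30) and Cox14 (0.32) were nearest to Ncam1, and Cand2 (0.25), Atg10 (0.28) and Rrm2b (0.29) to Dysf. Distances were smallest for Cdh2, Myof and Kirrel. They were 0.092 for Oxr1, 0.11 for Chmp3 and 0.13 for Gmfb to Cdh2, 0.14 for Plk2, 0.17 for Vps29 and 0.18 for Carhsp1 to Myof, and 0.11 for Gtf2e2, 0.12 for E2f4 and 0.18 for Alg5 to Kirrel.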

How the data were processed

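Total RNA-seq (MB, MT) and polyA RNA-seq (si-NC, si-hnRNPL) of C2C12 were used, with 1 library per condition, grouped by the sample titles. The authors trimmed the reads, discarded short ones, mapped the rest to mm9 with TopHat2 and estimated abundance with Cufflinks, and they deposited FPKM values, each with a 95% interval. FPKM holds no read count, so no count test was run. The total RNA libraries are described as strand specific. Whether counting used strand is not given in the sources used here.

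From these values log2((FPKM + 1) ratio) was computed in each pair of libraries, with the half-widths of both intervals added in quadrature, and genes were counted at an absolute value of 0.58 or more. An implied number of fragments is (2 x FPKM / (upper bound - FPKM)) squared, which takes the width of the interval as counting error alone. With 1 library per condition no test is possible, and the differences measure these libraries only. The 9 genes, the partner and marker lists and the alternatives were chosen with earlier results of these data known. Named are all 9 genes, Hnrnpl, and in each partner list up to 4 genes in MT over MB and up to 2 in si-hnRNPL over si-NC with the largest absolute change among those with an FPKM of 1 or more in at least 1 library of the pair. Marker genes beyond this rule were named after their values were seen. Of the genes most similar in level, 3 are named per gene. Gene positions, exons, transcript lengths and GC content came from GENCODE vM1 on NCBIM37 (mm9). Promoter windows came from RefSeq, on another build than the files.

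Transcript length and GC content were matched for 95.8% of the genes at 1 FPKM or more in both libraries of MT over MB and 96.6% of those of si-hnRNPL over si-NC. Their medians in 20 bins were subtracted in 3 rounds. Python 3.11.15, numpy 2.4.6, pandas 2.3.3 and matplotlib 3.10.9 were used. The calculation was tested on simulated data with counting error alone, which does not test the deposited intervals.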

Additional observations from a re-analysis of the deposited data

How the results depend on the processing

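The 6 genes of the 9 counted as higher in MT were so under every alternative that gave a value, where Tmem8c and Cav3 have none under the adjustment for length and GC content (4 of 7 higher). The count of 1 lower gene, Kirrel, became 0 with centring on the median, upper-quartile scaling and a fold change of 2. The 21 partners lower in MT became 12 with centring, 12 with upper-quartile scaling and 9 at a fold change of 2. In si-hnRNPL over si-NC the count of 0 higher genes became 1 (Cav3) with a pseudocount of 0.1 and 1 with 0.01. The 2 partners counted as higher became 7 with 0.01, 1 at a fold change of 2 and 1 with the adjustment for length and GC content, which was chosen after seeing the data, and the 1 lower became 3 with 0.1, 7 with 0.01 and 0 at a fold change of 2. Over the changes of the single genes, Tmem8c in MT ranged from 6.75 to 8.35, Cav3 from 3.95 to 5.86, Kirrel from -0.75 to -0.40, Myof from -0.29 to 0.06 and Cdh2 from -0.04 to 0.28. The cause of these shifts was not tested.

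Over all named entries, 1942 were higher and 3407 lower in MT, against 3060 and 2208 after centring, 2919 and 2119 with upper-quartile scaling, 3414 and 4265 with a pseudocount of 0.1, 5066 and 5205 with 0.01 and 931 and 1571 at a fold change of 2. In si-hnRNPL 172 were higher and 104 lower, against 829 and 639 with 0.1, 1738 and 1720 with 0.01, 38 and 17 at a fold change of 2, and, over the 10717 genes that could be adjusted, 44 and 54 after the adjustment for length and GC content against 88 and 78 before it. No paired analysis was possible because each condition has 1 library, and for the same reason no library could be left out. The intervals of Tmem8c, Cav3 and Gm7325 in MB correspond to 45.7, 27.0 and 5.79 fragments if read as counting error alone. These low MB values limit their ratios.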
